A study of Drosophila melanogaster with 12 samples.

Results

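The genes described here copy DNA: 33 genes of the fruit fly replication machinery, chosen by name, which load, start and run the replication fork, supply its nucleotides and pack the new DNA. A gene was read from a probe set, the group of short probes for a transcript, that carries a single gene symbol in the platform annotation, and from its brightest probe set where it has several. By this rule 28 of the 33 genes were measured, each by 1 probe set, out of 11982 genes measured in all. RpA-70 was found through its RefSeq name RPA1 and the other 27 by symbol. Orc6, geminin, Mcm7, Top2 and RnrS matched no such probe set and were not analysed here.

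The animals were whole Drosophila melanogaster from LHm, an outbred population kept at 25 °C, and the labels give no treatment. Females and males were each taken as larvae (of the third instar), as pupae and as adults. Each of these 6 groups had 2 biological replicates of 10 pooled animals, which gave 12 Affymetrix arrays. The design asks how messenger RNA differs between the sexes at a stage and how it changes between stages. A whole animal pools every tissue, so that fewer cells with a transcript and less of it per cell cannot be told apart.

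Replication starts where the origin recognition complex sits on DNA. Cdc6 and the Cdt1 protein, called double parked (dup) in flies, load the ring of the MCM helicase there, and Cdc45, the GINS complex and Mcm10 turn the ring into an active helicase. In flies much replication takes place in cells that copy their DNA without dividing, such as those of many larval tissues and the nurse and follicle cells of the ovary, and the egg is stocked with maternal products for the rapid first divisions of the embryo.

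All values are RMA expression values on the log2 scale, on which a difference of 1 is a doubling, and no gene's level is set against another gene's. The summed linear values of marker lists given below add the levels of several genes, so that the brightest genes weigh most. The lower quartile of all probe sets lay between 4.69 and 4.93 on the arrays, a range in which values lie near background and differences are compressed. Of the members only Orc1 had both arrays of a group below it, in female pupae, male pupae and male adults. The medians of the female arrays were 6.27 to 6.44, and those of the male arrays 6.73 to 6.81. Over all 18769 probe sets the larval, pupal and adult medians of female minus male were 0.23, 0.37 and 0.21, and they became 0.04, 0.10 and -0.04 under recentring, which subtracts from an array the median amount by which its probe sets depart from their means. Calls rest on limma's test with p-values adjusted over all probe sets by the Benjamini-Hochberg method, and a call needs an adjusted p below 0.05. Differences are given ± their standard error (SE), with n = 2 arrays in each group.

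The 28 genes shared one main pattern. All 28 had their highest group mean in adult females, and in all 28 both arrays of adult females lay above each of the other 10 arrays, by 0.63 in Psf1 and up to 4.48 in Orc1. In 22 genes the lowest group mean was that of adult males. The order adult females, then both larval groups, then both pupal groups, then adult males held for the means of 19 genes. The median over the 28 group means was 10.69 in adult females, 7.90 and 7.72 in female and male larvae, 7.28 and 6.82 in female and male pupae, and 6.32 in adult males.

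**Figure D1:**
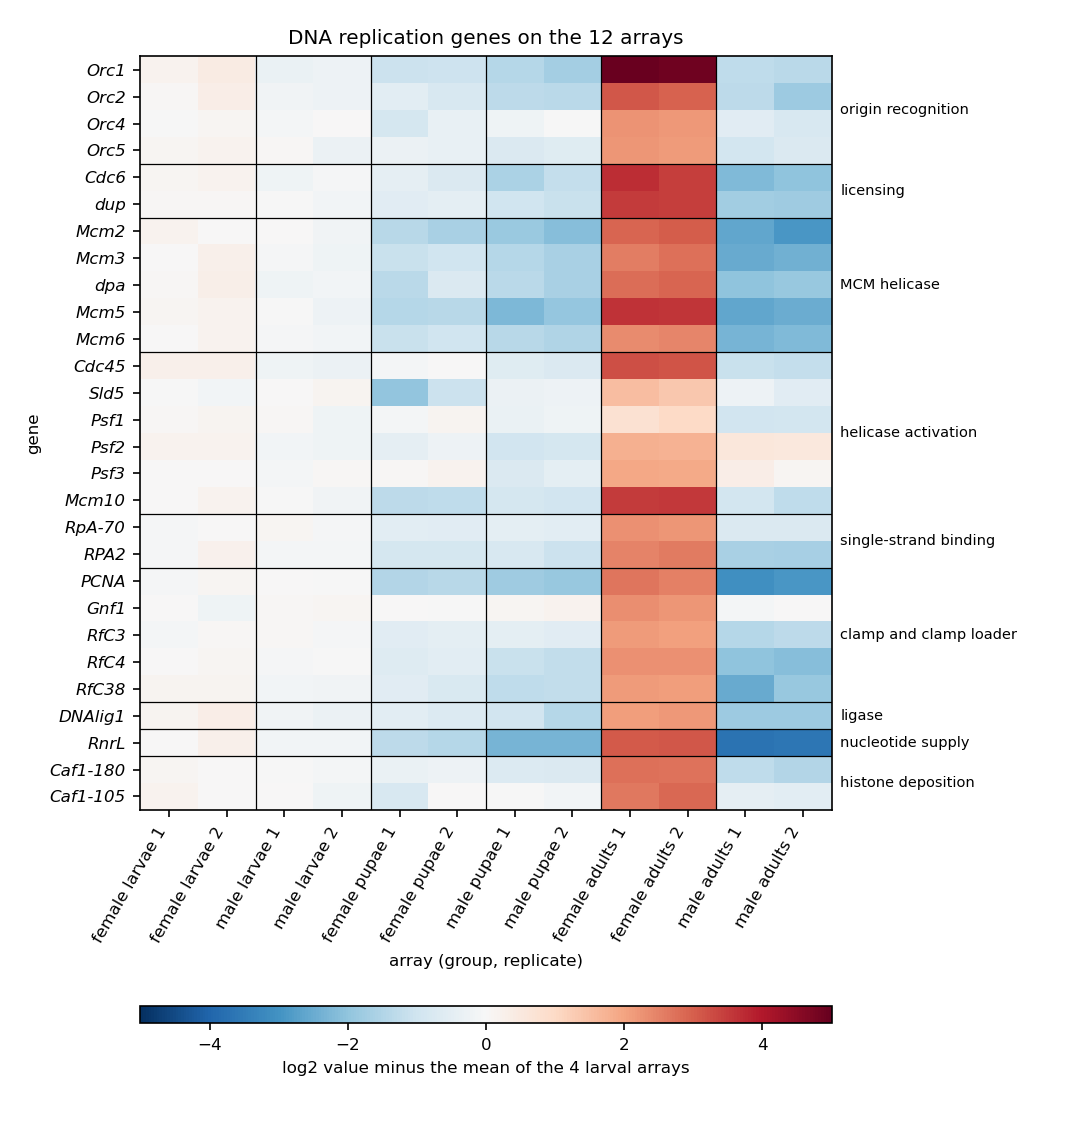
Log2 values of the 28 DNA replication genes (rows, ordered by role) on the 12 arrays (columns, 2 per group), each as its difference from that gene's mean over the 4 larval arrays. Both columns of adult females are red in every row, most strongly for Orc1, while pupae and adult males are mostly blue, with Psf2 pale red and Psf3 and Gnf1 near white in adult males.

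The first comparison asked how the genes differ between adult females and adult males. All 28 were higher in adult females, and each by at least 2-fold, whereas 39.0% of all probe sets were called higher, 20.5% were called higher by at least 2-fold, and 65.6% were called in either direction. The median female minus male difference of the 28 was 4.33, and 0.21 over all probe sets. Differences ran from 1.21 ± 0.10 for Psf2, a 2.32-fold difference (adjusted p = 8.29e-07), to 6.72 ± 0.10 for RnrL, a 105-fold difference (adjusted p = 7.28e-12). The 5 members on the X chromosome had a median of 4.35 and the 23 on autosomes one of 4.32. No single array left out, and no other setting tried, removed a call among the members tested. The Psf2 difference was below 2-fold after quantile normalization (0.95) and after recentring (0.96).

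The single genes with the largest adult differences were RnrL and Orc1. RnrL encodes the large subunit of ribonucleotide reductase, which makes deoxynucleotides. Its values were 11.99 and 12.02 in adult females and 5.25 and 5.32 in adult males, against 8.97 and 9.17 in female larvae, 8.79 and 8.80 in male larvae, 7.62 and 7.49 in female pupae and 6.60 and 6.61 in male pupae. No 2 of the 3 stages overlapped in either sex, and adult males were the lowest group. Orc1, the origin-binding subunit that the cell makes and removes with the cycle, was at 10.68 and 10.64 in adult females and at 4.48 and 4.42 in adult males. The adult difference of Orc1 was 6.21 ± 0.12 (74.1-fold, adjusted p = 1.74e-11), with the male arrays in the dim range given above. The other measured subunits of the complex differed by 4.59 ± 0.17 (Orc2), 3.01 ± 0.13 (Orc5) and 2.89 ± 0.16 (Orc4), and the median of the 4 subunits was 3.80.

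The genes of helicase loading and of the helicase itself all differed by more than 4 on the log2 scale. Cdc6 was at 10.95 and 10.72 in adult females and at 5.06 and 5.23 in adult males, a difference of 5.69 ± 0.15. dup differed by 5.23 ± 0.09. Of the MCM subunits Mcm5 differed most, with 11.49 and 11.45 in adult females, 5.27 and 5.38 in adult males and a difference of 6.14 ± 0.13. The sexes were far apart in each of these genes. Mcm2 followed with 5.71 ± 0.14, Mcm3 with 5.10 ± 0.13, dpa, which encodes the Mcm4 subunit, with 4.79 ± 0.19, and Mcm6 with 4.69 ± 0.10.

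Within helicase activation the differences ran from 1.21 to 4.61. Mcm10 was at 10.41 and 10.43 in adult females and at 5.98 and 5.64 in adult males, a difference of 4.61 ± 0.12, and Cdc45 differed by 4.35 ± 0.09. The 4 genes of GINS, the complex that travels with Cdc45 and MCM, had the 4 smallest differences of all 28 genes: 1.85 ± 0.23 for Sld5, 1.81 ± 0.13 for Psf1, 1.69 ± 0.12 for Psf3 and 1.21 ± 0.10 for Psf2. They lay below Gnf1, the next gene, at 2.29 ± 0.10.

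Other genes that act at the moving fork differed by 2.29 to 5.58, a range that overlaps that of the helicase genes. PCNA, the sliding clamp that holds the polymerase on DNA, was at 12.91 and 12.77 in adult females and at 7.18 and 7.33 in adult males (5.58 ± 0.11). Of the clamp loader, RfC4 differed by 4.38 ± 0.10, RfC38 by 4.32 ± 0.17, RfC3 by 3.46 ± 0.10 and Gnf1, its large subunit, by 2.29 ± 0.10. RPA2, a subunit of the protein that coats single-stranded DNA, was at 11.17 and 11.27 in adult females and at 7.05 and 7.01 in adult males (4.19 ± 0.12), and RpA-70, its large subunit, differed by 2.98 ± 0.09. In each of these genes the 2 sexes were separated by far more than the 2 arrays of a group. DNAlig1, which seals the pieces of the lagging strand, was at 9.74 and 9.82 against 5.84 and 5.83 (3.95 ± 0.15). The large subunit of CAF-1, the factor that places histones on new DNA, was at 10.27 and 10.21 against 6.23 and 6.03 (4.11 ± 0.10), and its middle subunit differed by 3.23 ± 0.22.

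**Figure D2:**
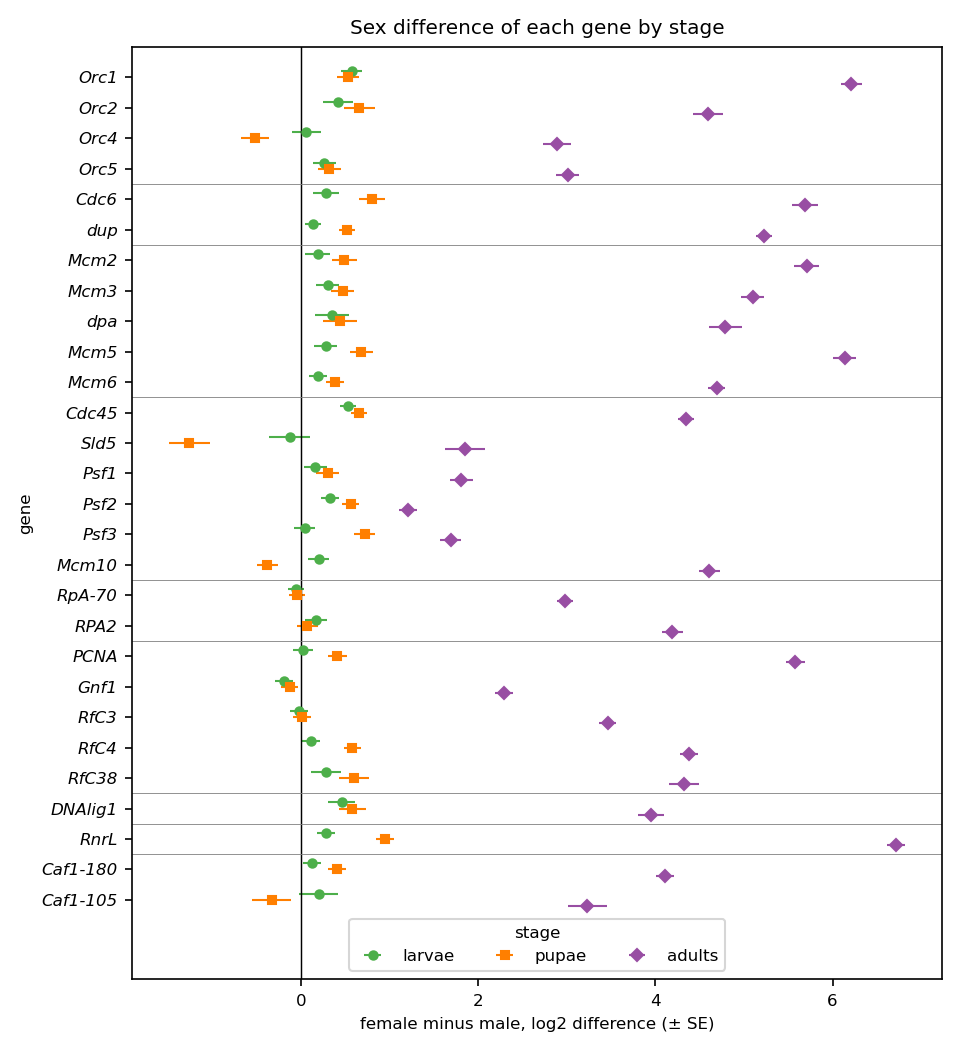
Female minus male log2 difference with its SE for each of the 28 genes (rows, ordered by role) in larvae, pupae and adults. Adult differences lie between 1.21 and 6.72, with the 4 GINS genes at the low end, while larval and pupal differences stay between -1.26 and 0.95.

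Markers of the ovary were also higher in adult females, though by unlike amounts. All 11 measured genes of an ovary and maternal list were higher in adult females (39.0% of all probe sets). Their summed linear values lay between 15.09 and 15.28 (log2) in adult females and between 11.71 and 12.48 on the other arrays. The brightest gene in these sums, by its mean over the 12 arrays, was gus (11.54). The germ plasm gene osk lay between 12.54 and 12.94 in adult females and between 3.82 and 4.92 on the other 10 arrays, and otu and orb, also of the female germline, were likewise high only there. The smallest adult difference of the list was that of grk (0.36). From pupae to adults in females 8 of the 11 rose and 2, stau and Bic-D, fell (27.2% of all probe sets each way). BicC was called lower in females in larvae (-1.96) and pupae (-2.9). There 0 and 8 genes of the list were called higher (27.1% and 51.9% of all probe sets). The part of the ovary in the members' difference was not tested. Genes of the testis list were lower in adult females in 14 of 15 and higher in 1 (26.6% and 39.0% of all probe sets). The 1 was twe, a Cdc25 phosphatase of meiosis (3.70).

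The step from pupae to adults went opposite ways in the sexes for most of the genes. In females all 28 rose (27.2% of all probe sets were called higher and 54.4% in either direction), with a median of 3.18. In males 17 fell and 2 rose (32.2% and 18.8% of all probe sets, and 51.0% in either direction), with a median of -0.60. The change of the sex difference over this step, which tests females against males directly, was called for all 28 in the same direction (26.1% of all probe sets in that direction), with a median of 3.76. It ranged from 0.65 ± 0.14 for Psf2 (adjusted p = 0.00246) to 5.77 ± 0.14 for RnrL (adjusted p = 6.32e-10). Orc1 (5.68 ± 0.17) and Mcm5 (5.46 ± 0.18) came next to RnrL, and Psf3 (0.97 ± 0.16) and Psf1 (1.51 ± 0.18) next to Psf2. The Psf2 value fell to 0.06 and was no longer called after quantile normalization (adjusted p = 0.755).

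Among the genes that fell in males were RnrL (-1.32 ± 0.10), PCNA (-1.15 ± 0.11), RfC38 (-0.97 ± 0.17) and Mcm3 (-0.93 ± 0.13). The 2 genes that rose in males were both GINS genes. Psf2 was at 6.63 and 6.74 in male pupae and at 8.15 and 8.14 in male adults, a rise of 1.46 ± 0.10 (adjusted p = 3.57e-07). Psf3 was at 7.14 and 7.37 in male pupae and at 8.18 and 7.96 in male adults, a rise of 0.81 ± 0.12. In neither gene did male pupae and male adults overlap. The third GINS gene, Psf1, fell in males (-0.66 ± 0.13), and the fourth, Sld5, had 7.60 and 7.62 in male pupae and 7.61 and 7.33 in male adults and was not called (adjusted p = 0.677). Male larvae were at 7.47 and 7.40 for Psf2, so that adult males were also above larvae (0.71 ± 0.10). Psf2 was the only member called higher in adult than in larval males, and 23 of the 28 were called lower, against 24.3% and 32.2% of all probe sets (56.6% in either direction). In females all 28 were higher in adults than in larvae, against 28.2% of all probe sets (52.6% in either direction), with a median of 2.48.

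**Figure D3:**
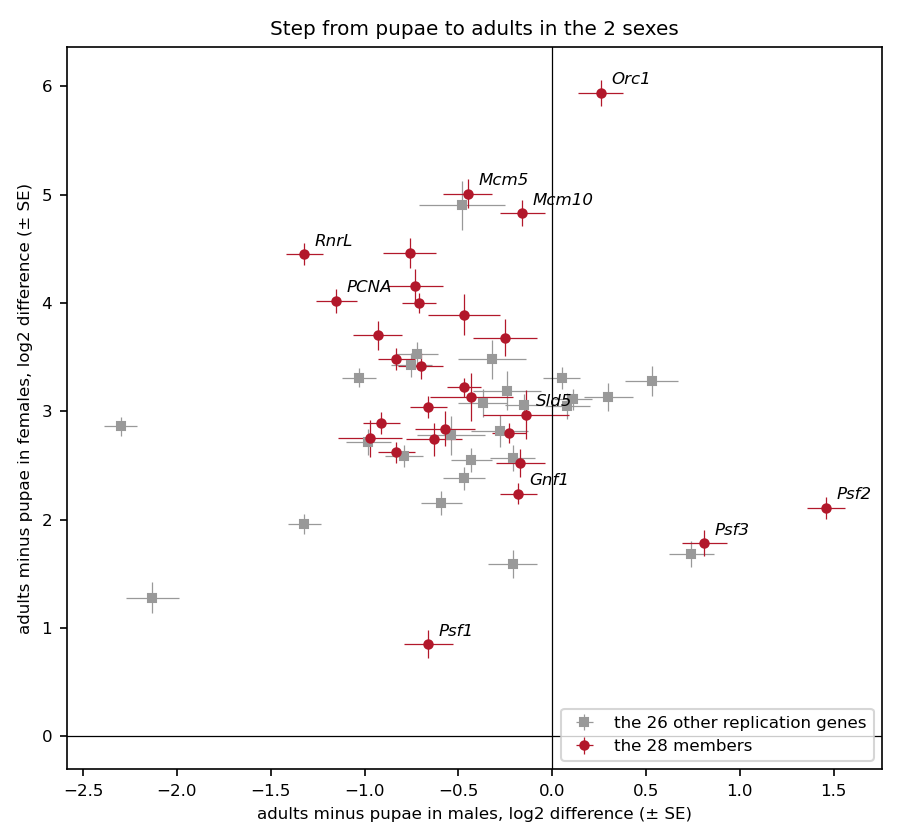
Log2 difference of adults minus pupae in males (horizontal) and in females (vertical), with SE, for the 28 members (circles) and the 26 other replication genes (squares). All points lie above 0 in females, while in males most members lie left of 0, with Psf2 at 1.46 and Psf3 at 0.81 to the right.

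From larvae to pupae most of the genes fell in both sexes. In females 24 of 28 fell and 0 rose, with a median of -0.76, and in males 23 fell and 0 rose, with a median of -0.91 (19.6% and 21.2% of all probe sets were called lower, and 45.4% and 48.5% in either direction). At an unadjusted p under 0.05 in limma's test 0 members rose in either sex as well. At least 2-fold decreases were called for 10 genes in females and 12 in males, against 8.53% and 9.23% of all probe sets. The pupal arrays used here are also those of the step to adults. The helicase subunits and PCNA were among the larger decreases in both sexes: Mcm5 fell by 1.54 in females and by 1.95 in males, Mcm2 by 1.59 and 1.89, PCNA by 1.45 and 1.84, and RnrL by 1.52 and 2.19. PCNA was at 10.18 and 10.34 in female larvae, 10.26 and 10.23 in male larvae, 8.77 and 8.86 in female pupae and 8.46 and 8.36 in male pupae. Each pupal array of PCNA was below each larval array.

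Gnf1 stood apart, with differences of 0.11 ± 0.10 in females and 0.05 ± 0.10 in males, neither called. Outside adult females its group means covered a range of only 0.24, whereas those of RnrL covered 3.79. Psf1 (-0.06 and -0.19) and the middle subunit of CAF-1 (-0.49 and 0.04) were also called in neither sex. Orc4 and Sld5 fell in females (-0.66 and -1.46) and were not called in males (-0.08 and -0.34). Psf3 fell in males (-0.57 ± 0.12) and was not called in females (0.11 ± 0.12). The change of the sex difference was called for Psf3 (0.68 ± 0.16, adjusted p = 0.0156). Without adult females, the profile of Gnf1, Psf2, Psf3 and Sld5 over the 5 remaining group means had a Pearson correlation between -0.12 and 0.26 with the median of the other members, and that of the other 24 genes lay between 0.72 and 1.00. These are descriptions over 5 means from 10 arrays that all members share.

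Markers of dividing larval tissues did not move as one over this step. The neuroblast genes dpn, ase, wor and mira fell in both sexes, dpn by 2.38 in females and by 2.29 in males, while the wing disc gene vg rose by 1.92 and 1.46. Of the 12 measured disc and neuroblast markers 5 rose and 5 fell in females (25.7% and 19.6% of all probe sets). In males 2 of the markers rose and 6 fell (27.2% and 21.2% of all probe sets). Their summed linear values lay between 10.89 and 11.23 (log2) in larvae, 10.87 and 11.48 in pupae and 9.71 and 10.00 in adults. In males the testis list moved the other way from the members. Of its 15 genes 10 rose from larvae to pupae (27.2% of all probe sets) and 5 were not called, with a median of 1.35. The summed linear values of the list went from between 14.15 and 14.36 (log2) in male larvae to between 16.0 and 16.03 in male pupae. In females 1 testis gene rose and 1 fell (25.7% and 19.6% of all probe sets). The part of these tissues in the members' decrease was not tested.

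In larvae the sexes differed little. Of the 28 genes 5 were called higher in females and 0 lower, where 27.1% of all probe sets were called higher and 11.9% lower. At an unadjusted p under 0.05, 7 were higher and 0 lower. By at least 2-fold 0 were called, where 1.43% of all probe sets were higher and 8.43% lower, and the median of 0.19 was below the 0.23 of all probe sets. By recentring this median was 0.01. The count of 5 depended on the scaling, with 15 called after quantile normalization, 26 under array-median centring and 3 after recentring. Calls over all 18769 probe sets moved too, from 7318 to 8012, 16661 and 4175 in the same order. The 5 genes were Orc1 (0.57 ± 0.12), Cdc45 (0.53 ± 0.09), DNAlig1 (0.46 ± 0.15), Psf2 (0.33 ± 0.10) and RnrL (0.28 ± 0.10). Only Orc1 (0.39) and Cdc45 (0.34) were still called higher after recentring, and Gnf1 was then called lower (-0.37). Cdc45 was at 7.93 and 7.92 in female larvae and at 7.44 and 7.35 in male larvae, without overlap, and Orc1 at 5.92 and 6.16 against 5.44 and 5.51. The count was 2 without female larvae replicate 2 and without male larvae replicate 2, and 3 without male larvae replicate 1.

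In pupae more genes were called, and they went both ways. Higher in females were 18 and lower 3, where 51.9% and 14.3% of all probe sets were called (66.3% in either direction), and the median of 0.45 was near the 0.37 of all probe sets. After recentring 7 were higher and 5 lower, with a median of 0.18, where 3311 and 3382 of all 18769 probe sets were called. RnrL had the largest female-higher difference (0.95 ± 0.10, adjusted p = 1.89e-05), with 7.62 and 7.49 in female pupae against 6.60 and 6.61 in male pupae. It was followed by Cdc6 (0.80 ± 0.15), Psf3 (0.72 ± 0.12) and Mcm5 (0.68 ± 0.13), and all 4 were still called higher after recentring.

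The 3 genes lower in female pupae were Sld5, Orc4 and Mcm10. Sld5 was at 5.89 and 6.81 in female pupae and at 7.60 and 7.62 in male pupae, while larvae of both sexes lay between 7.76 and 8.01. The female pupae were thus the lowest group and did not overlap with any other, but their 2 arrays were far apart. The difference was -1.26 ± 0.23 (adjusted p = 0.0012), the only 2-fold call of a member in pupae, where 10.4% of all probe sets were lower by at least 2-fold, and it was -0.80 without female pupae replicate 1 and -1.71 without female pupae replicate 2, called each time. Orc4 was at 5.97 and 6.45 in female pupae and at 6.63 and 6.83 in male pupae (-0.52 ± 0.16, adjusted p = 0.0142). That call was lost without female pupae replicate 1 (-0.28) and without male pupae replicate 2 (-0.42). It was also lost in limma's test with only the groups compared (adjusted p = 0.0585). Mcm10 was at 5.57 and 5.62 against 6.0 and 5.94 (-0.38 ± 0.12, adjusted p = 0.0225), and its call was lost without any 1 of the 4 pupal arrays. After recentring the 3 differences were larger, at -1.53, -0.79 and -0.65, and under array-median centring Orc4 and Mcm10 were no longer called (adjusted p = 0.384 and 0.98), nor after quantile normalization (adjusted p = 0.36 and 0.118).

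The sex difference changed from larvae to pupae for 5 of the 28 genes, 3 upward and 2 downward, where 7.74% of all probe sets were called upward, 9.78% downward and 17.5% in all, a share close to that of the members. RnrL (0.67 ± 0.14, adjusted p = 0.00722), Psf3 and RfC4 (0.47 ± 0.14) moved toward females, and Sld5 (-1.12 ± 0.33, adjusted p = 0.0416) and Mcm10 (-0.57 ± 0.18, adjusted p = 0.0491) toward males. Cdc6 (0.52, adjusted p = 0.137) and Orc4 (-0.58, adjusted p = 0.102) had changes of like size that were not called. By at least 2-fold only Sld5 was called, where 2.30% of all probe sets were called upward and 7.42% downward by that much. RnrL, at 0.67, was not called by that minimum but kept its call under each other alternative. Sld5, Mcm10 and RfC4 lost theirs under most of them, and the Sld5 value was -0.67 without female pupae replicate 1. The Psf3 call was lost without male larvae replicate 2 (0.61), female pupae replicate 2 (0.62) or male pupae replicate 1 (0.56). The count fell to 1 or 2 without any 1 of the 4 larval arrays, the 2 male pupal arrays or the 2 arrays of adult females, and to 2 with a replicate block, a fit that lets the replicates numbered 1 and 2 differ.

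**Figure D4:**
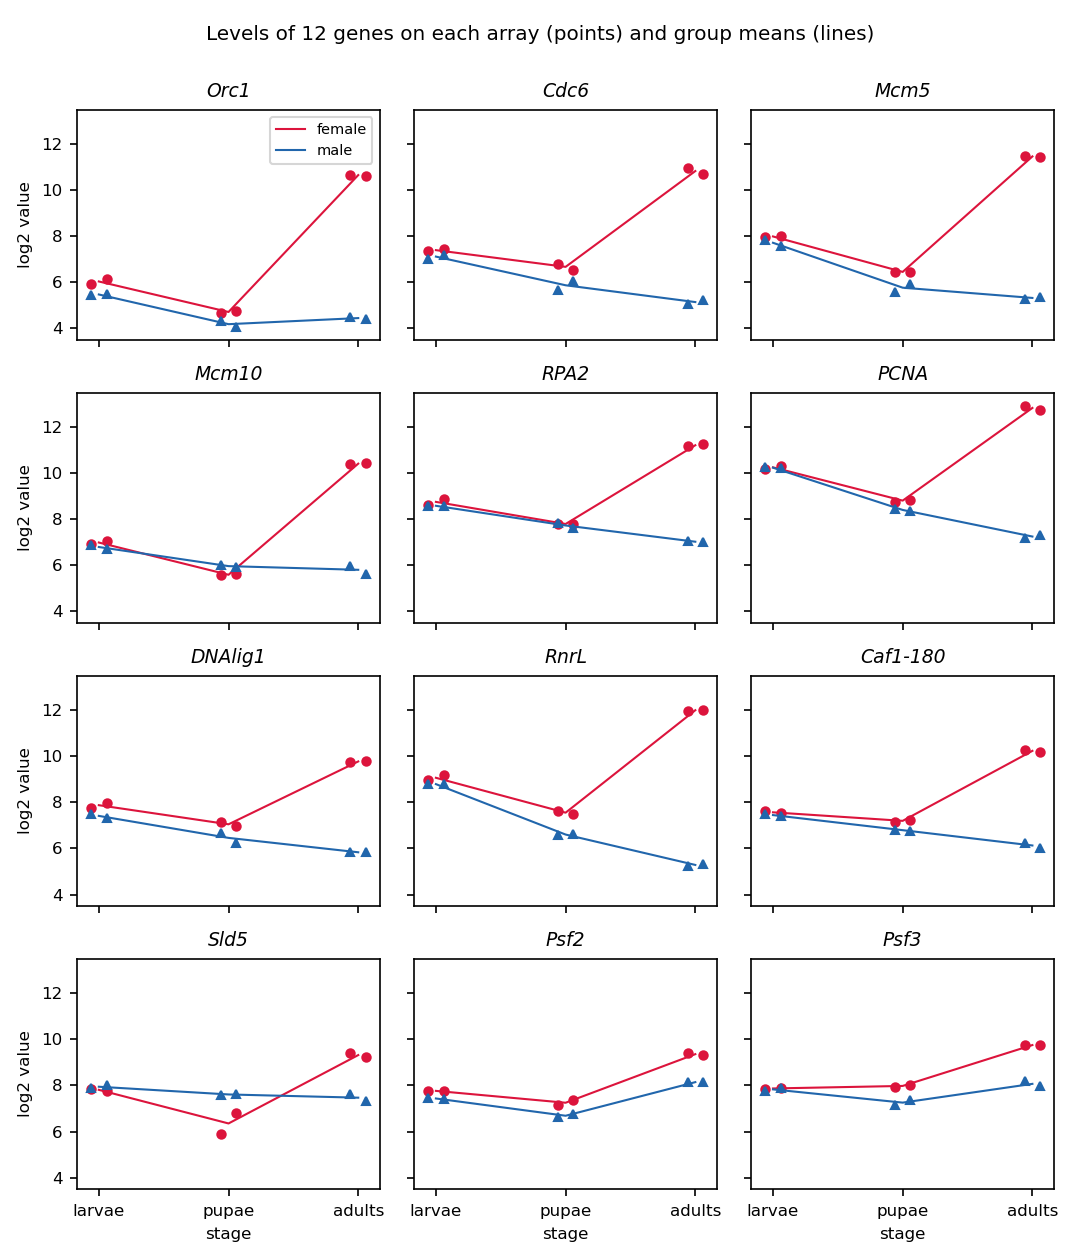
Log2 values on each array (points) and group means (lines) by stage in females and males, for the gene with the largest adult sex difference of each role and for Sld5, Psf2 and Psf3. In the first 9 panels the lines part after pupae, upward in females. In Sld5 the female line is below the male line in pupae and above it in adults. Psf2 and Psf3 go up from pupae to adults in both sexes.

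Other genes of replication, from a list written from general knowledge with 29 entries, were measured in 26 cases. In adults all 26 were higher in females (39.0% of all probe sets), with a median of 3.70. Largest were dUTPase (5.67 ± 0.09), which keeps uracil out of DNA, the helicase RecQ4 (5.45 ± 0.23), dnk, a deoxynucleoside kinase (5.05 ± 0.09), and Rif1, which times late replication (4.76 ± 0.11). The smallest difference was that of the kinase Cdc7 (0.47). From larvae to pupae 16 of the 26 fell in females and 16 in males (19.6% and 21.2% of all probe sets). In females 1, dnk, rose (0.29 ± 0.09), against 25.7% of all probe sets. From pupae to adults all 26 rose in females (27.2% of all probe sets). In males 13 fell and 2 rose (32.2% and 18.8% of all probe sets). The 2 were Cdc7 (0.74 ± 0.12) and Prim1, the small primase subunit (0.53 ± 0.14).

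Regulators of entry into replication were counted in the same way, and 7 of 9 were measured. All 7 were higher in adult females (39.0% of all probe sets), with a median of 2.66. CycE, the cyclin that drives cells into replication, differed by 6.36 ± 0.16, its kinase partner Cdk2 by 5.10 ± 0.14 and Rbf2, of the retinoblastoma family, by 4.50 ± 0.23. E2f2, which represses E2F target genes, had the smallest difference of the 7 (2.24), and in pupae it was lower in females (-0.42 ± 0.12) while CycE was higher (0.71 ± 0.16). From pupae to adults in males 6 of the 7 fell (32.2% of all probe sets), CycE by 1.87.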

How the data were processed

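The table the authors deposited holds log2 values, 1 for each probe set and array, with none missing. RMA, which corrects background, normalizes arrays and summarises probes, is named in the submitters' processing notes; the sources used here give neither its version nor its options. After 183 control probe sets were left out, 18769 were tested. Genes were named from the platform annotation and RefSeq (Release 6).

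One limma fit (version 3.58.1, R 4.3.3; eBayes without trend) of 6 group means over 12 arrays had 6 residual and 4.1 prior degrees of freedom and gave 11 comparisons. The number of arrays limits the precision. The test was checked on simulated data.

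The members and lists (other replication genes, entry regulators, ovary, testis, and disc and neuroblast markers) were chosen with earlier results of these data known, so that the adult pattern is no independent support. Values per array are given for the member of each role with the largest adult sex difference. They are also given for members named for a change of the sex difference, except Psf1 and RfC4, or for an opposite sign. Other values shown were chosen after they were seen. In other lists up to 4 called genes per direction were named, besides members singled out as exceptions. The symbol nos is a synonym of more than 1 gene and was left out.

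Alternatives were quantile normalization, array-median centring, recentring, leaving out each array, fitting only the groups compared, removing dim probe sets, eBayes with a robust trend, a replicate block, a 2-fold minimum and the mean over a gene's probe sets.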

Additional observations from a re-analysis of the deposited data

Results flagged for a closer look

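The change of the sex difference between stages, tested directly in the fit, was called for 28 of 28 members from pupae to adults, where 51.5% of all probe sets were called. The largest were RnrL (5.77), Orc1 (5.68) and Mcm5 (5.46), and the smallest Psf2 (0.65), Psf3 (0.97) and Psf1 (1.51). From larvae to pupae it was called for 5 of 28 members, a share close to the 17.5% of all probe sets. Among the 5 were Psf3 (0.68), RnrL (0.67), Sld5 (-1.12) and Mcm10 (-0.57). Sld5, Mcm10 and RfC4 lost their calls under most alternatives, and Psf3 lost its call without some single arrays. With 2 arrays per group no array could be tested as an outlier within its group.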

How the results depend on the processing

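The counts of members called for the adult sex difference, for both steps into female adults and for the change of the sex difference from pupae to adults stayed within 1.5 times under each alternative, as did the count for larvae to adults in males. For the sex difference in larvae (5 called) the count was 15 after quantile normalization, 26 under array-median centring, 3 after recentring (2 higher and 1 lower), 3 with only the groups compared, 2 to 5 with 1 array left out and 0 with a 2-fold minimum. Of all 18769 probe sets 8012, 16661, 4175 and 5721 were called in larvae under the first 4 of these settings. For pupae (21 called, 18 higher) the members' count was 12 after recentring, 7 of them higher, and 1 with a 2-fold minimum. Array-median centring gave 24 higher and 1 lower. Over all probe sets recentring called 6693 in pupae, 3311 of them higher, and array-median centring 15133 higher and 2172 lower. With a 2-fold minimum the decreases from larvae to pupae numbered 10 in females and 12 in males, and the calls from pupae to adults in males 3. By that minimum 10.6% of all probe sets were called higher and 12.7% lower from pupae to adults in males. For the change of the sex difference from larvae to pupae (5 called) the count was 3 with only the groups compared, 1 to 4 with 1 array left out and 1 with a 2-fold minimum. Under array-median centring, values below 0 not called in the fit above turned positive and were called for RpA-70 (0.31 in larvae, 0.32 in pupae), RfC3 (0.35 in larvae) and Gnf1 (0.24 in pupae). This centring adds to each sex difference by construction, since array medians were lower in females. The cause of the other changes was not tested.

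The labels give no source that same-numbered replicates share, and the deviations of same-numbered arrays correlated between -0.076 and 0.082 over the 15 pairs of groups. With the replicate block the change of the sex difference from larvae to pupae was called for 2 members in place of 5. Over all 18769 probe sets it was called for 3119 in place of 3287. Every other count stayed within 1.5 times. Near the lower end of the scale, as for Orc1 in pupae and adult males, the arrays limit how large a difference can appear.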
